A study of Mus musculus with 8 samples.

Results

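The genes described here encode chains of the receptors for interferons and for the interleukins IL-4, IL-6, IL-10 and IL-13. They were taken from a list of 10 names, Ifnar1, Ifnar2, Ifngr1, Ifngr2, Il10ra, Il10rb, Il4ra, Il13ra1, Il6ra and Il6st, by exact match to the gene symbols of the deposited table. Of the 10 genes listed, 9 were found among the 10639 genes of the table and all 9 passed the filter on low values. Il10rb was not analysed here. The values come from bulk RNA sequencing of RAW264.7, a mouse macrophage-like line transformed with Abelson murine leukaemia virus. Each is an FPKM, a fragment count scaled to the length of the gene and to the reads of the library. Levels of different genes can be compared only as far as that length fits the transcripts present.

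All cells were labelled wild type. The study had 4 groups of 2 libraries each, and the first was given lipopolysaccharide (LPS) together with anti-CD36 antibodies for 12 h, with no doses on its own labels. The second was given LPS at 50 ng/mL for 12 h, the third was given anti-CD36 antibodies at a dilution of 1:100 for 12 h, and the last was untreated. LPS is a bacterial cell wall component that activates macrophages through Toll-like receptor 4, and CD36 is a scavenger receptor of the macrophage surface. No group with an antibody of another specificity was among them, so an effect of CD36 binding and one of antibody addition cannot be told apart. Nothing in the labels says that the libraries of a group came from separate cultures, so the p-values here speak of differences among libraries, a spread that may be technical.

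Cytokine receptors of this family have no kinase of their own. A ligand joins receptor chains, Janus kinases bound to the chains phosphorylate each other and the receptor tails, and STAT proteins that dock there enter the nucleus. Type I interferons use IFNAR1 with IFNAR2, interferon-gamma uses IFNGR1 with IFNGR2, IL-10 uses IL-10RA with IL-10RB and STAT3, IL-4 and IL-13 use IL-4RA with IL-13RA1 (or with the common gamma chain for IL-4) and STAT6, and IL-6 uses IL-6RA with the shared chain gp130, encoded by Il6st, and STAT3. In macrophages, IL-10 restrains inflammatory output, interferon-gamma primes it, and IL-4 and IL-13 drive alternative activation.

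Depth, recovered from the values, was 47900000 to 71700000 reads per library. At that depth the receptor genes rested on 182 to 7252 reads per library, fewest for Il4ra in anti-CD36 replicate 2 and most for Il6ra in untreated replicate 2. In anti-CD36 replicate 1, 15.7% of all FPKM fell on mitochondrially encoded genes, the highest share of the 8 libraries. Of the 8 macrophage markers listed, 7 were measured, and their summed FPKM was 2102 to 2382 in the combination, 2637 to 2864 with LPS, 4173 to 4639 with anti-CD36 and 3165 to 3682 in untreated cells. Of the markers of other cell types, 1 of 6 for T and NK cells (Lck), 2 of 6 for B cells (Cd79b and Ighm) and 1 of 6 for granulocytes (Csf3r) were measured, and those of fibroblasts, epithelium and endothelium were not analysed here. Lck was at 4.15 FPKM in both combination libraries and 4.21 to 4.32 FPKM with LPS. It was at 1.72 to 1.87 FPKM with anti-CD36 and 1.89 to 2.00 FPKM in untreated cells. Cd79b and Ighm together summed to 79.1 to 83.0 FPKM in the combination and 76.3 to 78.6 FPKM with LPS. Their sum was 68.0 to 110 FPKM with anti-CD36 and 84.7 to 87.5 FPKM in untreated cells. Csf3r lay at 2.97 to 4.92 FPKM over the 8 libraries. The part of these markers in the results below was not tested. In bulk RNA, fewer cells of a type and less RNA per cell cannot be told apart.

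LPS lowered a subset of the receptor transcripts and left the order of the chains changed. Against untreated cells, Il6ra fell most, followed by Ifngr1, Il10ra and Ifnar2, and no receptor gene rose. With limma on log2(FPKM + 1) and Benjamini-Hochberg adjustment over 10289 genes, 4 of 9 receptor genes were lower and 0 of 9 higher at an adjusted p under 0.05, and 4 of 9 had an unadjusted p under 0.05, against 60.9% of all genes. Over all genes tested, 54.6% were called in this comparison, 37.5% lower and 17% higher, so the share of receptor genes called lies near that background. The median log2 difference was -0.20 over the receptor genes and -0.19 over all genes. With size factors that set the median of all genes to 0.0043, 2655 genes (25.8%) were higher and 2726 (26.5%) lower, 52.3% in all, against 1754 higher and 3860 lower as deposited. With them Il4ra (log2 difference 0.28, adjusted p = 0.0357 by limma) and Il13ra1 (0.40, adjusted p = 0.0344) joined as higher while Ifnar2 (-0.21, adjusted p = 0.134) was no longer called. With the length trend removed Ifnar1 was also called higher (0.39, adjusted p = 0.0159 by limma). Il6ra, Ifngr1 and Il10ra were called lower under each of the alternatives run.

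Anti-CD36 antibodies alone lowered 1 of 9 receptor genes, Il6st, and raised 0 of 9, by the same limma test against untreated cells. All genes gave 13.7% called, 10.6% lower and 3.04% higher. The median log2 difference was -0.21 over the receptor genes and -0.08 over all genes. Il4ra, Il10ra and Il6ra lay just outside the threshold, with adjusted p of 0.0552, 0.0576 and 0.059 by limma. This comparison and that of LPS share the untreated libraries.

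Adding the antibodies to LPS lowered 1 of 9 receptor genes, Il13ra1, against LPS alone, and raised 0 of 9, by the same limma test. All genes gave 1.78% called, 1.42% lower and 0.36% higher. The median log2 difference was -0.14 over the receptor genes and -0.02 over all genes.

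In cells that all had the antibodies, LPS changed 6 of 9 receptor genes. The combination was lower than anti-CD36 alone in 5, Il6ra, Ifngr1, Il13ra1, Il10ra and Ifnar2, and higher in 1, Il4ra. All genes gave 47.1% called, 31.7% lower and 15.4% higher. This comparison shares no library with that of LPS against untreated cells, but both took their spread from all 8 libraries. Il6ra, Ifngr1, Il10ra and Ifnar2 were called lower in both. Fitted on the combination and anti-CD36 libraries alone, Il6ra and Ifngr1 stayed called, while Il10ra (adjusted p = 0.0812) and Ifnar2 (adjusted p = 0.154 by limma) did not. For Ifnar2 the call against anti-CD36 was lost without 7 of the 8 libraries, taken 1 at a time, and with the replicate number as a block (adjusted p = 0.0606 by limma). The interaction, the LPS difference with the antibodies minus the LPS difference without them, was called by limma for 0 of 9 receptor genes and 0.00972% of all genes. By limma-voom on recovered reads it was called for 0 of 9 and for 0 of 9363 genes. At an unadjusted p under 0.05 limma gave 3 of 9 receptor genes, Il13ra1, Il4ra and Il10ra, against 13.6% of all genes.

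**Figure D1:**
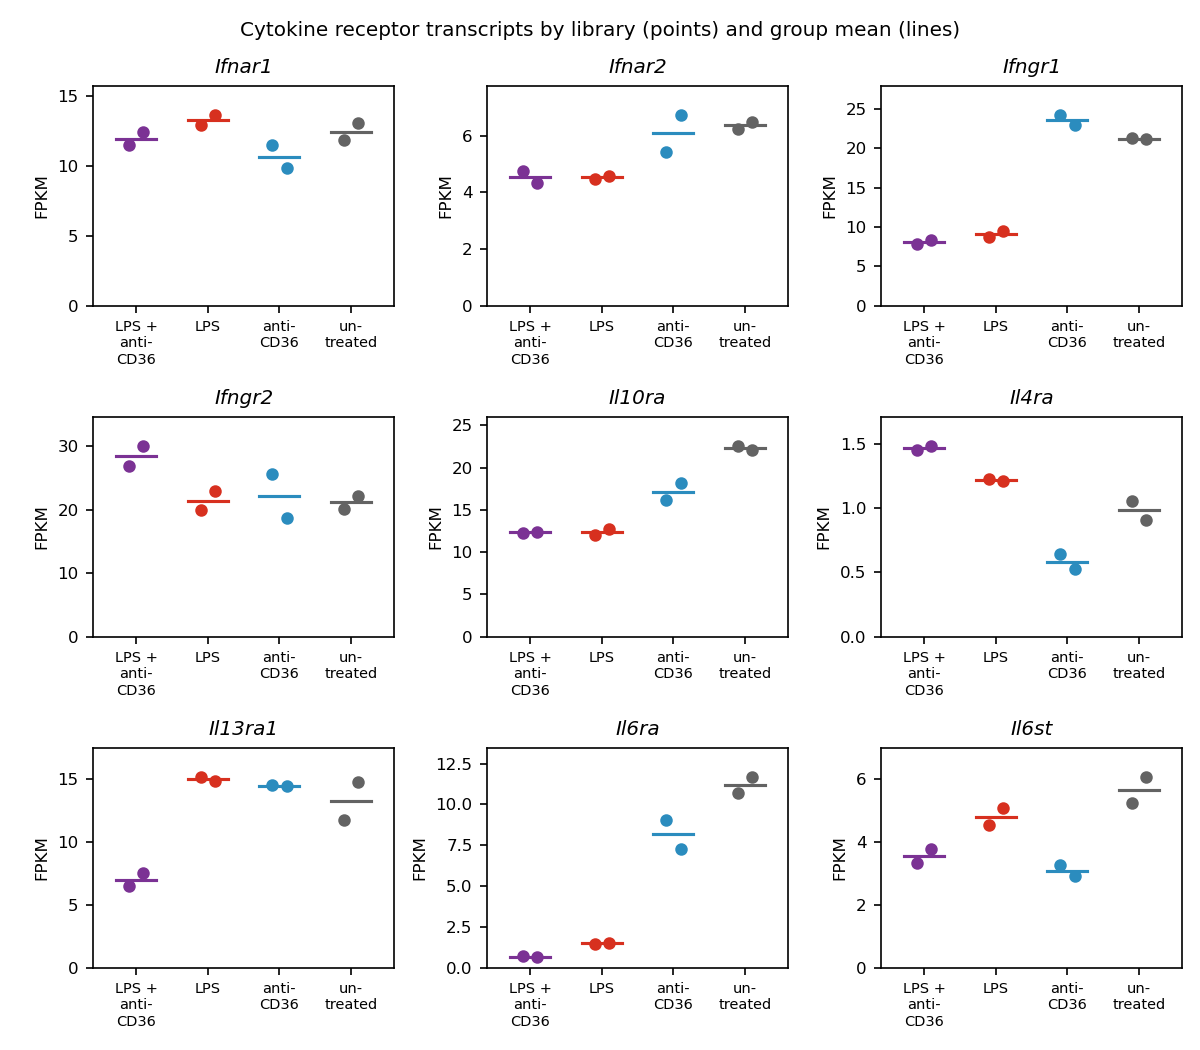
FPKM of the 9 receptor genes in each of the 8 libraries (points, 2 per group) with the group mean (lines), groups from left to right LPS plus anti-CD36, LPS, anti-CD36 and untreated, each panel with its own axis from 0. Il6ra lay at 0.623 to 1.53 FPKM in the 4 libraries with LPS and at 7.28 to 11.7 FPKM in the 4 without, and Il13ra1 was low in the combination alone, at 6.46 and 7.47 FPKM.

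**Figure D2:**
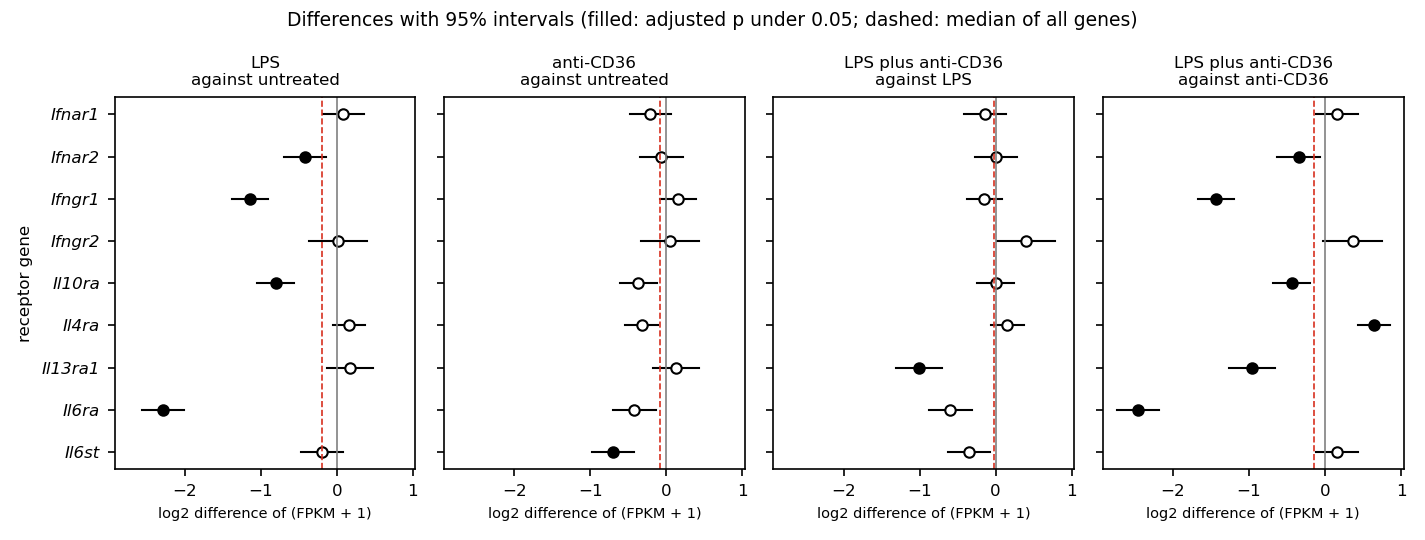
Log2 difference of (FPKM + 1) for each receptor gene in 4 comparisons, with 95% intervals from limma as bars, filled points for an adjusted p under 0.05, a grey line at 0 and a dashed line at the median of all genes. Il6ra and Ifngr1 lie far to the left in both comparisons that test LPS, at -2.28 and -1.14 against untreated cells and at -2.46 and -1.44 against anti-CD36.

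Ifngr1 and Ifngr2 encode the chains of the interferon-gamma receptor, and LPS separated them. Ifngr1 (chr10:19591949-19610229, plus strand, GRCm38), the ligand-binding chain, was at 7.86 and 8.38 FPKM in the combination, 8.70 and 9.51 FPKM with LPS, 24.3 and 23.0 FPKM with anti-CD36, and 21.3 and 21.1 FPKM in untreated cells. All 4 libraries with LPS were below all 4 without it. Its mean with LPS was 9.11 ± 0.57 FPKM, 42.9% of the untreated 21.2 ± 0.10 FPKM (SD, n = 2 each), a log2 difference of -1.14 with an SE of 0.10 and an adjusted p of 0.000104 by limma. In the presence of the antibodies the level with LPS was 34.3% of that without, a log2 difference of -1.44 (SE 0.10, adjusted p = 3.6e-05 by limma). Ifngr2 (chr16:91547072-91565623, plus strand), the accessory chain needed for signalling, was at 26.9 and 30.1 FPKM in the combination, 19.97 and 22.9 FPKM with LPS, 25.7 and 18.7 FPKM with anti-CD36, and 20.1 and 22.2 FPKM in untreated cells. The LPS and untreated ranges overlapped, and the difference of 0.02 on the log2 scale had a 95% interval of -0.37 to 0.40 (adjusted p = 0.942 by limma). Both combination libraries were above the others, but the log2 differences of 0.40 from LPS (adjusted p = 0.241) and 0.36 from anti-CD36 (adjusted p = 0.107 by limma) did not pass. The first passed under 1 of 12 alternatives, the fit on those groups alone (adjusted p = 0.0148 by limma), and stayed uncalled under 11. Leaving out an anti-CD36 library kept it at 0.40 and changed only the spread estimated over all groups. Over the alternatives and with each library left out, it ran from 0.30 to 0.49. The difference from anti-CD36 passed under 2 of 12 alternatives and stayed uncalled under 10. The 2 were size factors (0.54, adjusted p = 0.0387) and the length trend removed (0.54, adjusted p = 0.0355 by limma). Over the alternatives and with each library left out, it ran from 0.14 to 0.58.

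The promoter windows of this pair are shown because the chains of one receptor moved apart. Each runs from 250 bases before to 50 bases after the annotated start, 5′ to 3′ on the gene's strand (RefSeq, GRCm38.p6, Ifngr1 at chr10:19591699-19591998 and Ifngr2 at chr16:91546809-91547108, both plus strand), and capitals mark the match to an NF-kB site. A window was found for 8 of the 10 genes listed.
Ifngr1: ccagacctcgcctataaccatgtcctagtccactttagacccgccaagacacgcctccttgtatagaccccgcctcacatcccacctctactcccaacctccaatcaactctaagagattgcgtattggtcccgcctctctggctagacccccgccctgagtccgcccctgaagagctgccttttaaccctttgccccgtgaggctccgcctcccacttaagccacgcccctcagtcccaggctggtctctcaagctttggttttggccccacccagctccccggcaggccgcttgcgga
Ifngr2: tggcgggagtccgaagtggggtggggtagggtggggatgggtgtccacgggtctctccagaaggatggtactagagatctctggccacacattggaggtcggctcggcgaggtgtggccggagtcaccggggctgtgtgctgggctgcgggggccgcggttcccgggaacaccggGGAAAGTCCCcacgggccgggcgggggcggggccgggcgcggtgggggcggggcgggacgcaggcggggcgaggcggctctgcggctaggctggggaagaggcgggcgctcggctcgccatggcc
Both strands were searched for 3 motifs. The ISRE core (GAAA, any 2 bases, GAAA) is found in many interferon-stimulated genes, and STAT dimers bind the GAS core TTCNNNGAA. The last was an NF-kB site. No window of a receptor gene held the ISRE core (0 of 8, against 3.44% of 32851 promoter windows of the same length). The NF-kB match was in Ifngr2 and Il4ra (2 of 8, against 4.51%). The Ifngr1 window held none of the 3. These matches describe letters only.

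Ifnar1 and Ifnar2 encode the type I interferon receptor, which all interferon-alpha subtypes and interferon-beta share. Ifnar1 (chr16:91485238-91507441, plus strand) was at 11.5 and 12.4 FPKM in the combination, 12.9 and 13.6 FPKM with LPS, 11.5 and 9.80 FPKM with anti-CD36, and 11.8 and 13.1 FPKM in untreated cells. It was called in none of the comparisons as fitted on the deposited values, with log2 differences of 0.09 for LPS (95% interval -0.19 to 0.36, adjusted p = 0.548 by limma), -0.21 for anti-CD36 (adjusted p = 0.266) and -0.14 for the combination against LPS (adjusted p = 0.567). Ifnar2 (chr16:91372783-91405589, plus strand), the chain with the higher affinity for the ligands, was at 4.75 and 4.33 FPKM in the combination, 4.48 and 4.57 FPKM with LPS, 5.42 and 6.74 FPKM with anti-CD36, and 6.24 and 6.49 FPKM in untreated cells. The libraries with LPS were all below those without. Its mean with LPS was 4.53 ± 0.063 FPKM, 71.1% of the untreated 6.37 ± 0.18 FPKM (SD, n = 2 each), with a log2 difference of -0.41 (SE 0.12, adjusted p = 0.0205 by limma). That call was lost without any 1 of the LPS and untreated libraries, with adjusted p between 0.0702 and 0.102 by limma, and with quantile normalization (0.181), size factors (0.134) or the length trend removed (0.14). The call of the combination against anti-CD36 (-0.35, adjusted p = 0.0453) was lost under 6 of the alternatives, with size factors (-0.19, adjusted p = 0.188 by limma), quantile normalization (0.218), the length trend removed (0.156), the fit on those groups alone (0.154), the replicate block (0.0606) and limma-voom (0.0529). It was also lost in 7 of 8 fits that left out a library and held without anti-CD36 replicate 1 (-0.48, adjusted p = 0.00669). Exons of Ifnar2 overlap those of the annotated gene Gm21970 on the same strand, so some of its reads may belong to either.

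The GAS core was found in the windows of this pair alone (2 of 8 receptor genes, against 8.30% of promoter windows), and capitals mark it (RefSeq, GRCm38.p6, Ifnar1 at chr16:91484965-91485264 and Ifnar2 at chr16:91372533-91372832, both plus strand).
Ifnar1: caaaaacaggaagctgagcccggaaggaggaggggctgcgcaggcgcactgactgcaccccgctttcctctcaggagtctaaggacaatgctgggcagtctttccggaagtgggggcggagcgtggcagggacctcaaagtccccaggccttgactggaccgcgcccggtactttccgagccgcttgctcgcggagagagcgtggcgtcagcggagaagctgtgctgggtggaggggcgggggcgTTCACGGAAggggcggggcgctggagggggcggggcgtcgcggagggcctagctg
Ifnar2: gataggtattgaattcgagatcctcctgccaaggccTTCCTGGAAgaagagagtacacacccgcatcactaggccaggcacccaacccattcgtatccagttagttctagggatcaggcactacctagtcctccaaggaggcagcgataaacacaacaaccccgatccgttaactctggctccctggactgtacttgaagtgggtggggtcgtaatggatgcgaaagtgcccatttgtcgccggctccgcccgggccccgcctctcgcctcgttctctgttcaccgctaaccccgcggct
The Ifnar2, Il10rb, Ifnar1 and Ifngr2 genes lie in this order on the plus strand of chromosome 16, within 193 kb. Of the 3 measured there, Ifnar2 fell with LPS, while Ifnar1 and Ifngr2 were not called.

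Il10ra (chr9:45253837-45269149, minus strand) encodes the ligand-binding chain for IL-10. It had the highest mean of the receptor genes in untreated cells, where its libraries overlapped those of Ifngr2. It was at 12.3 and 12.4 FPKM in the combination, 12.0 and 12.8 FPKM with LPS, 16.1 and 18.2 FPKM with anti-CD36, and 22.6 and 22.1 FPKM in untreated cells. The LPS and combination libraries overlapped, and anti-CD36 alone lay between them and the untreated cells without overlapping either. The mean with LPS was 12.4 ± 0.56 FPKM, 55.3% of the untreated 22.4 ± 0.34 FPKM (SD, n = 2 each), a log2 difference of -0.81 (SE 0.10, adjusted p = 0.000561 by limma). The combination was at 72.0% of anti-CD36 alone (log2 difference -0.44, adjusted p = 0.0108 by limma), a call lost with size factors (adjusted p = 0.057), in the fit on those groups alone (0.0812) and without either combination library (0.0585 without replicate 1, 0.0543 without replicate 2). Between the combination and LPS the log2 difference was -0.00083, with a 95% interval of -0.24 to 0.24 (adjusted p = 0.998 by limma). Anti-CD36 alone was at 76.7% of untreated cells, a log2 difference of -0.37 that did not pass (adjusted p = 0.0576 by limma). It passed under 2 of 12 alternatives, a pseudocount of 5 (0.047) and mitochondrial genes left out (0.0361 by limma), and stayed uncalled under 10. Over the alternatives and with each library left out, it ran from -0.46 to -0.27.

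Il4ra and Il13ra1 encode the chains of the receptor that binds both IL-4 and IL-13, and Il4ra had the lower level in every library. Il4ra (chr7:125552120-125579474, plus strand) was at 1.45 and 1.49 FPKM in the combination, 1.23 and 1.21 FPKM with LPS, 0.640 and 0.528 FPKM with anti-CD36, and 1.05 and 0.911 FPKM in untreated cells. No groups overlapped, with anti-CD36 alone lowest and the combination highest. In the presence of the antibodies Il4ra was 2.51-fold higher with LPS, a log2 difference of 0.64 (SE 0.09, adjusted p = 0.00105 by limma). Without them the log2 difference was 0.16 (SE 0.09, adjusted p = 0.166 by limma). Anti-CD36 alone was at 59.5% of untreated cells (log2 difference -0.32, adjusted p = 0.0552 by limma). This passed under 3 of 11 alternatives and stayed uncalled under 8. The 3 were a pseudocount of 0.1 (-0.66, adjusted p = 0.0488), limma-voom (-0.75, adjusted p = 0.0408) and mitochondrial genes left out (0.0491 by limma). Over the alternatives and with each library left out, the difference ran from -0.75 to -0.10. A pseudocount of 1 is about as large as the level of this gene and understates its change. An antisense gene, Gm44876, overlaps its exons, and whether the counting used strand is not given in the sources used here.

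Il13ra1 (chrX:36112110-36171259, plus strand) was at 6.46 and 7.47 FPKM in the combination, 15.2 and 14.8 FPKM with LPS, 14.5 and 14.4 FPKM with anti-CD36, and 11.7 and 14.7 FPKM in untreated cells. The combination stood below all 6 other libraries, whose ranges lay close together. Its mean of 6.97 ± 0.71 FPKM was 46.5% of the 15.0 ± 0.22 FPKM with LPS (SD, n = 2 each), a log2 difference of -1.01 (SE 0.13, adjusted p = 0.0214 by limma). That call was lost without either LPS library (adjusted p = 0.199 and 0.225) and without either combination library (0.224 and 0.152 by limma), with log2 differences of -1.10 to -0.92. The combination was also below anti-CD36 alone (48.3%, log2 difference -0.96, adjusted p = 0.000862 by limma). LPS alone gave a log2 difference of 0.18 from untreated cells (95% interval -0.13 to 0.48, adjusted p = 0.279). The interaction of -1.13 (SE 0.18) had an unadjusted p of 0.00036 and an adjusted p of 0.19 by limma. It stayed uncalled under each of 11 alternatives, all fitted to 8 libraries. With each library left out in turn, it ran from -1.29 to -0.98, and whether it was called depended on the library.

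Il6ra (chr3:89864059-89913196, minus strand), the chain that binds IL-6, had the largest difference of the receptor genes. It was at 0.693 and 0.623 FPKM in the combination, 1.47 and 1.53 FPKM with LPS, 9.04 and 7.28 FPKM with anti-CD36, and 10.7 and 11.7 FPKM in untreated cells. No groups overlapped, and the combination was lowest. The reads behind these values numbered 366 and 288 in the combination, 782 and 840 with LPS, 3744 and 3613 with anti-CD36, and 5143 and 7252 in untreated cells. With LPS the mean was 1.501 ± 0.039 FPKM, 13.4% of the untreated 11.2 ± 0.72 FPKM (SD, n = 2 each), a log2 difference of -2.28 (SE 0.12, adjusted p = 1.1e-05 by limma). With the antibodies present, LPS left 8.06% of the level without it, a log2 difference of -2.46 (SE 0.12, adjusted p = 8e-06 by limma). The combination was at 43.8% of LPS alone, and this log2 difference of -0.59 did not pass (adjusted p = 0.0587 by limma). It passed under 3 of 12 alternatives and stayed uncalled under 9. The 3 were a pseudocount of 0.1 (-1.08, adjusted p = 0.0308), limma-voom on recovered reads (-1.19, adjusted p = 0.0324) and the fit on those groups alone (adjusted p = 0.00147 by limma). Leaving out an anti-CD36 library kept it at -0.59 and changed only the spread estimated over all groups. Over the alternatives and with each library left out, it ran from -1.19 to -0.20. Anti-CD36 alone was at 72.9% of untreated cells (log2 difference -0.42, adjusted p = 0.059 by limma). This passed under 1 of 12 alternatives, a pseudocount of 5 (adjusted p = 0.0375 by limma), and stayed uncalled under 11. Over the alternatives and with each library left out, the difference ran from -0.56 to -0.17. An antisense gene, Gm42809, overlaps the exons of Il6ra.

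The Il6ra window is shown because this gene fell most with LPS. It held none of the 3 motifs (RefSeq, GRCm38.p6, chr3:89913147-89913446, minus strand), so no letters are in capitals.
Il6ra: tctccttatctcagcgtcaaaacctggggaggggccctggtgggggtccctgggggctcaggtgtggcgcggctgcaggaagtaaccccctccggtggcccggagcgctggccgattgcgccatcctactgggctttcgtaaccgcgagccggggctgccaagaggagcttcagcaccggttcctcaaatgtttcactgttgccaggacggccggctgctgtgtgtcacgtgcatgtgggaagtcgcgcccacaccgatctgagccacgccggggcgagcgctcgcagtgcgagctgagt

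Il6st (chr13:112464070-112510086, plus strand) encodes gp130, the signalling chain shared by IL-6, IL-11, LIF, oncostatin M and IL-27, and it was the gene called with anti-CD36 alone. It was at 3.32 and 3.78 FPKM in the combination, 4.53 and 5.07 FPKM with LPS, 3.27 and 2.91 FPKM with anti-CD36, and 5.24 and 6.08 FPKM in untreated cells. Both groups given the antibodies were below both groups without them. The mean with anti-CD36 was 3.09 ± 0.26 FPKM, 54.6% of the untreated 5.66 ± 0.59 FPKM (SD, n = 2 each), a log2 difference of -0.70 (SE 0.12, adjusted p = 0.0167 by limma). The call was lost without either untreated library (adjusted p = 0.0792 without replicate 1 and 0.124 without replicate 2) and in the fit on those groups alone (0.166), and it held without anti-CD36 replicate 1 (-0.77, adjusted p = 0.00486 by limma). Il6st has the longest exons of the receptor genes, 11099 bases in all. Across 10044 genes the log2 difference of anti-CD36 against untreated fell with exon length (Spearman rho -0.44), and so did that of the combination against LPS (rho -0.48). With the length trend removed the Il6st difference was -0.42 (adjusted p = 0.0336). In the combination Il6st was at 73.9% of LPS alone (log2 difference -0.35, adjusted p = 0.169 by limma). This passed under 1 of 11 alternatives, the fit on those groups alone (0.0386 by limma), and stayed uncalled under 10. LPS alone gave -0.20 from untreated cells (95% interval -0.47 to 0.08, adjusted p = 0.192 by limma).

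The order of the levels changed with LPS. In untreated cells it ran from Il10ra (22.4 FPKM) through Ifngr1 and Ifngr2, Il13ra1 and Ifnar1, Il6ra, Ifnar2 and Il6st to Il4ra (0.982 FPKM). The libraries of Ifngr1 and Ifngr2 overlapped there, as did those of Il10ra and Ifngr2 and those of Il13ra1 and Ifnar1. With anti-CD36 alone it ran from Ifngr1 (23.7 FPKM) and Ifngr2 (22.2 FPKM), which overlapped, to Il4ra (0.584 FPKM). With LPS it ran from Ifngr2 (21.4 FPKM) through Il13ra1, Ifnar1, Il10ra, Ifngr1, then Il6st and Ifnar2, which overlapped, and Il6ra to Il4ra (1.22 FPKM). In the combination it ran from Ifngr2 (28.5 FPKM) through Il10ra and Ifnar1, which overlapped, to Il4ra (1.47 FPKM) and Il6ra (0.658 FPKM). Averaged over all libraries, Ifngr2 stood highest, at the 79.3 percentile of genes in the table, and Il4ra lowest, at the 7.49 percentile.

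The ratio of the chains of a receptor within a library does not depend on the scaling of that library. This ratio can still carry a shift with exon length, which was not removed from it. It was compared between the 4 libraries with LPS and the 4 without by a two-sided exact permutation test over 70 arrangements, whose smallest p is 0.0286, with Benjamini-Hochberg adjustment over the 4 pairs that could be formed. The Il6ra to Il6st ratio was 0.165 to 0.325 with LPS and 1.93 to 2.76 without, a difference of -3.24 in the mean log2 ratio (exact permutation p = 0.0286, adjusted p = 0.0381). In FPKM, Il6st was thus below Il6ra without LPS and above it with LPS. The Ifngr1 to Ifngr2 ratio was 0.278 to 0.436 with LPS and 0.947 to 1.23 without, a difference of -1.58 (exact permutation p = 0.0286, adjusted p = 0.0381). The Ifnar1 to Ifnar2 ratio was 2.41 to 2.98 with LPS and 1.45 to 2.11 without, a difference of 0.58 (exact permutation p = 0.0286, adjusted p = 0.0381). These 3 pairs did not overlap between the sides. Ratios of other gene pairs were not computed, and 54.6% of all genes tested were called with LPS. The separation is therefore not shown to be particular to receptor chains. The Il4ra to Il13ra1 ratio was 0.0809 to 0.225 with LPS and 0.0367 to 0.0898 without, ranges that overlapped, with a difference of 1.26 (exact permutation p = 0.0857, adjusted p = 0.0857). Within the libraries given the antibodies this difference was 2.39, and within those without them 0.12.

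**Figure D3:**
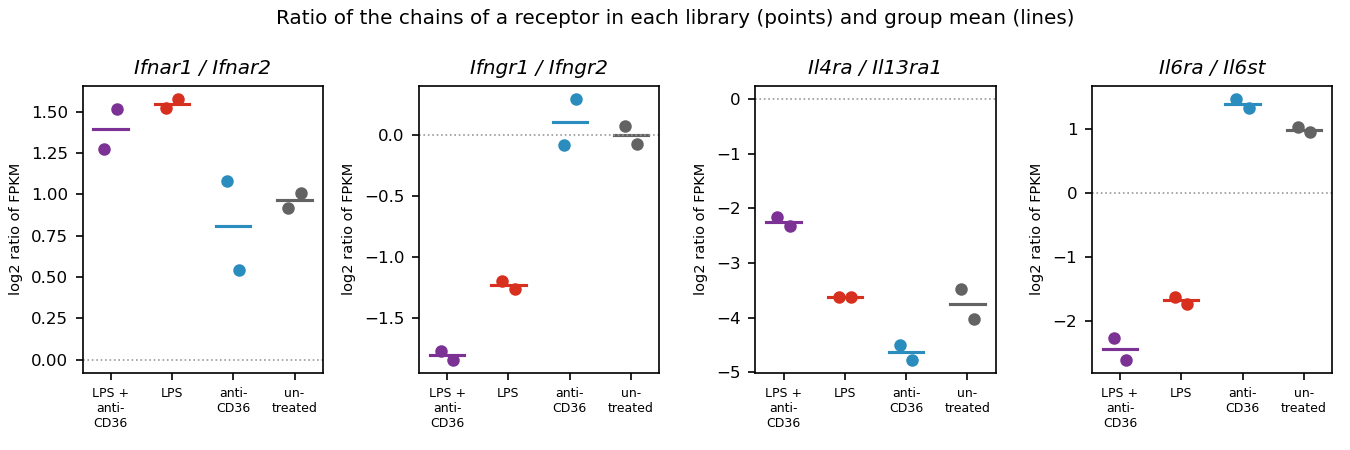
Log2 ratio of the FPKM of both chains of a receptor in each library (points) with group means (lines), groups from left to right LPS plus anti-CD36, LPS, anti-CD36 and untreated, each panel with its own axis and a dotted line at equal levels where the axis reaches it. The Il6ra to Il6st and Ifngr1 to Ifngr2 ratios were lower in all 4 libraries with LPS than in the 4 without, and the Il4ra to Il13ra1 ratio was highest in the combination.

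Other genes of these pathways were read from 7 lists. With LPS, 17% of all genes tested were called higher and 37.5% lower, and the counts of list genes stand beside those shares. The ligand list had 14 genes, of which 3 were measured, and all 3 rose with LPS. They were Lif (115 and 120 FPKM with LPS, 0.107 and 0.154 FPKM in untreated cells), Il27 (243 and 181 FPKM, against 1.27 and 1.17 FPKM) and Osm (26.5 and 30.2 FPKM, against 2.34 and 1.99 FPKM). Their log2 differences were 6.71, 6.57 and 3.21, with adjusted p of 4.17e-08, 2.89e-07 and 2.19e-06 by limma. All 3 encode cytokines whose receptors contain gp130. Il10, Il6, Ifnb1 and the other ligands on the list were not analysed here.

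Of 27 other chains of the family listed, 8 were tested, and with LPS 4 rose and 2 fell, beside 17% and 37.5% of all genes. Il2rg, the common gamma chain that can join IL-4RA, was at 86.5 and 78.4 FPKM with LPS and at 39.7 and 41.4 FPKM in untreated cells (log2 difference 1.00, adjusted p = 0.00543 by limma). Csf2rb, the beta chain shared by the receptors for GM-CSF, IL-3 and IL-5, fell by 1.54 on the log2 scale (adjusted p = 9.04e-05), and its near-identical paralog Csf2rb2 fell by 1.16 (adjusted p = 0.00017), values that are uncertain because reads may be split between them. Crlf2, a chain of the TSLP receptor, rose by 0.62 (adjusted p = 0.019 by limma).

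Of the 4 Janus kinases, Jak2, which works with IFNGR2 and gp130, rose with LPS (12.7 and 14.5 FPKM, against 6.98 and 8.63 FPKM in untreated cells, log2 difference 0.73, adjusted p = 0.00288 by limma). Tyk2, which works with IFNAR1 and IL-10RB, fell (11.1 and 11.3 FPKM, against 15.9 and 15.1 FPKM, log2 difference -0.44, adjusted p = 0.0142). Jak1 (-0.04) and Jak3 (-0.06) were not called. Of 5 STATs tested, 1 rose and 1 fell. Stat5a rose by 0.96 (adjusted p = 0.00128 by limma). Stat6, which acts downstream of IL-4RA, was at 29.1 and 31.1 FPKM with LPS and at 59.6 and 61.2 FPKM in untreated cells, a log2 difference of -0.98 (adjusted p = 0.000457 by limma). Stat3, with a log2 difference of -0.29 (adjusted p = 0.0712), and Stat5b, with -0.10 (adjusted p = 0.415 by limma), were not called.

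Of 9 negative regulators and receptor-processing genes tested, 2 rose and 2 fell with LPS, a share called that lies near the 54.6% of all genes. Socs3, an inhibitor that binds gp130, rose by 3.30 (41.7 and 48.9 FPKM with LPS, against 3.82 and 3.56 FPKM in untreated cells, adjusted p = 8.13e-06 by limma), and Usp18, which binds IFNAR2 and damps type I interferon signalling, rose by 1.93 (60.1 and 57.5 FPKM, against 17.2 and 12.5 FPKM, adjusted p = 0.000152). Adam10, a protease that can shed IL-6RA, fell by 1.17 (adjusted p = 0.000293 by limma), and Pias1 had a log2 difference of -0.51 that did not pass (adjusted p = 0.0561). Of 6 STAT3-linked genes 5 rose and 0 fell, led by Zfp36 (3.70), Socs3 (3.30), Bcl3 (2.38) and Nfil3 (1.12). Many of these genes are also direct targets of Toll-like receptor signalling, so their names do not separate the routes. On the STAT6-linked list only the chemokine gene Ccl22 was tested, and it rose by 6.59 with LPS (124 and 119 FPKM, against 0.309 and 0.240 FPKM in untreated cells).

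**Figure D4:**
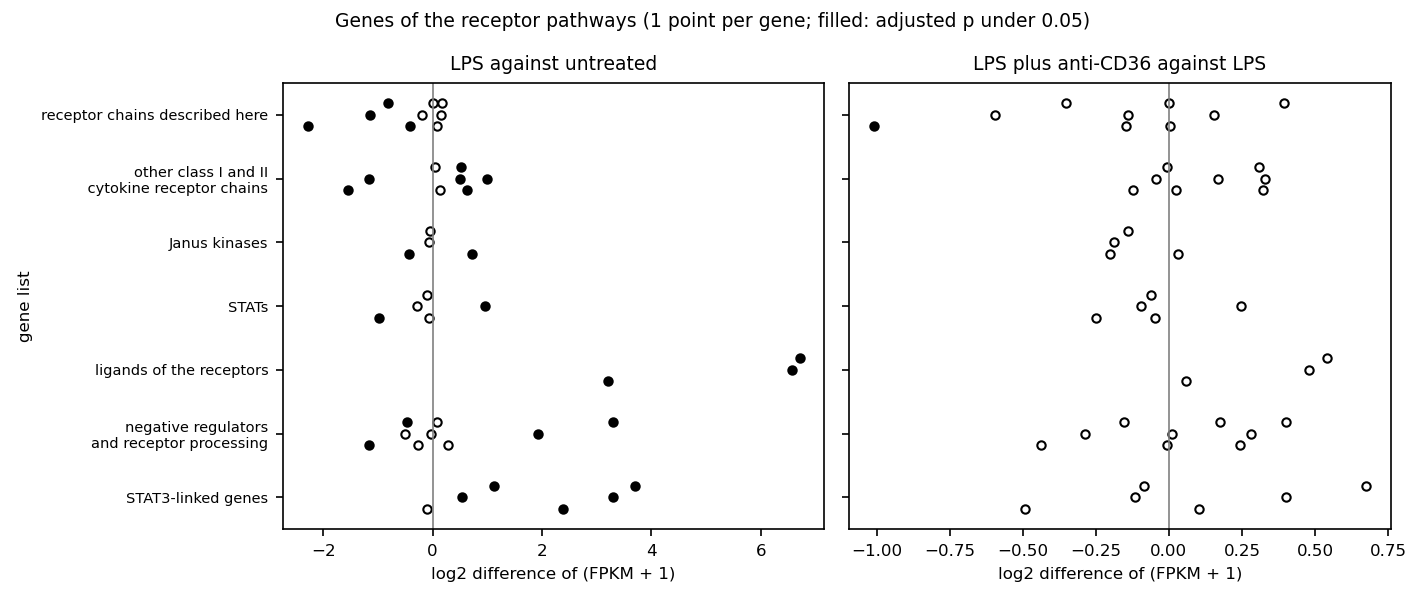
Log2 difference of (FPKM + 1) for each tested gene of the receptor set and of 6 pathway lists (1 point per gene, filled where the adjusted p by limma was under 0.05), for LPS against untreated (left) and LPS plus anti-CD36 against LPS (right), with different horizontal scales. All 3 ligand genes and 5 of 6 STAT3-linked genes lie right of 0 and filled on the left, while on the right the only filled point is Il13ra1, at -1.01, and Ccl22, the sole gene of its list, is not drawn.

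With anti-CD36 alone, 0 genes of the ligand, receptor-chain and STAT6-linked lists were called by limma, with 1 gene per list at an unadjusted p under 0.05, against 31.2% of all genes. Over all genes, 10.6% were called lower in this comparison. Called lower were Tyk2 (-0.56, adjusted p = 0.0244), 3 of 5 STATs, namely Stat2 (-0.65), Stat3 (-0.64) and Stat5b (-0.60), the regulators Ptpn11 (-0.59) and Adam10 (-0.56), and the STAT3-linked genes Sbno2 (-0.47) and Etv3 (-0.78). Between the combination and LPS alone, Ccl22 was the gene called on the 7 lists, at 278 and 277 FPKM in the combination and 124 and 119 FPKM with LPS (log2 difference 1.19, adjusted p = 0.0197 by limma). On the other lists 0 genes were called there, and 0 to 3 genes per list had an unadjusted p under 0.05, against 19.5% of all genes.

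For the 3 receptor genes with the widest range of group means, the genes with the most similar profile over the 8 libraries were found among 9802 candidates, by the root mean square difference of centred log2(FPKM + 1) values. For Il6ra, with a range of 2.88 on that scale, these were Rcor2 (0.106), Tifab (0.164) and Ttc7 (0.178). Rcor2 averaged 1.62 FPKM in the combination, 2.58 FPKM with LPS, 12.0 FPKM with anti-CD36 and 15.6 FPKM in untreated cells, and so shared the low level of Il6ra in both groups with LPS. For Ifngr1, with a range of 1.44, they were Inpp5k (0.0486), Colec12 (0.0628) and Angpt2 (0.067). For Il13ra1, with a range of 1.01, they were Lonrf3 (0.136), Egr3 (0.163) and Nmrk1 (0.168). Lonrf3 averaged 7.06 FPKM in the combination, against 13.9 FPKM with LPS, 12.4 FPKM with anti-CD36 and 14.2 FPKM in untreated cells.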

How the data were processed

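RNA sequencing of 8 libraries of RAW264.7 cells was analysed, grouped by their labels. The deposited table holds FPKM values made by the authors, 1 column per library. HISAT2 2.0.5, mm10 and hg38 are named in the submitters' processing notes. Why hg38 is listed, and which counter, annotation and strand setting were used, is not given in the sources used here. Although 10x Genomics stands on the labels, the table has 1 value per gene and library and was treated as bulk data. Il10rb was not analysed here, so 4 of the 5 planned chain ratios were formed.

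FPKM are not counts, so limma 3.58.1 in R 4.3.3 was run on log2(FPKM + 1). A gene needed FPKM of 1 or more in 2 or more libraries, which left 10289, with 4 group means fitted to all 8 libraries, a trended prior (4 residual and 3.46 prior degrees of freedom) and Benjamini-Hochberg adjustment over all genes tested. A fold on this scale understates changes of low genes. Percentages of another group's level are ratios of mean FPKM. Reads behind FPKM values were recovered from library depth and GENCODE M21 exon lengths (GRCm38), and 93.0% of 10377 genes came out whole within 0.05 reads in all libraries. Intervals cover the spread between libraries, and read numbers carry counting error only. The fit was tested on simulated data.

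The receptor genes and lists were chosen with earlier results of these data known. All listed receptor genes are described. From each pathway list, up to 4 genes with the largest LPS difference are named, and any called between the combination and LPS. Those named for anti-CD36 alone are all the list genes called there, and a few with uncalled differences were added after their values were seen. Promoter windows are from RefSeq GRCm38.p6. Alternatives were the pseudocount, the filter, scaling, removal of mitochondrial genes or of a length trend, the prior, the libraries fitted, a replicate block and leaving out each library. The limma-voom fit on recovered reads was added after seeing the data. Some genes of the lists are not reported here.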

Additional observations from a re-analysis of the deposited data

Results flagged for a closer look

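In 4 cases every library of one contrast moved the opposite way to every library of the same contrast under the other condition. How many of all genes meet this rule was not counted, so the number is not shown to be particular to the receptor genes. The difference between the contrasts was tested as the interaction by limma, and none passed. For Il13ra1, LPS gave higher values than the untreated libraries without the antibodies and lower ones with them, an interaction of -1.13 on the log2 scale (unadjusted p = 0.00036, adjusted p = 0.19 by limma). For Il6st, LPS gave lower values without the antibodies and higher ones with them (0.351, adjusted p = 0.406 by limma). For Il4ra, the antibodies gave higher values with LPS and lower ones without it (0.478, adjusted p = 0.272 by limma). For Ifngr1, the antibodies gave lower values with LPS and higher ones without it (-0.298, adjusted p = 0.409 by limma). Of the differences behind these cases, only that of Il13ra1 for LPS with the antibodies was called. With mitochondrial genes left out, LPS without the antibodies gave -0.028 for Il13ra1, and LPS with them gave -0.010 for Il6st. With quantile normalization, LPS without the antibodies gave 0.029 for Il6st. All 4 cases are values of 2 libraries a group, and their causes were not tested.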

How the results depend on the processing

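Of 521 comparisons of a receptor gene's difference with an alternative, 470 kept direction and side of the threshold, 12 lost the call, 22 gained one and 17 turned direction. Leaving out 1 library (360) gave 319, 19, 10 and 12. None of the 12 called differences turned. Each call gained by leaving out a library came without an anti-CD36 library, which leaves 1 in that group. For anti-CD36 these were Il10ra, Il4ra and Il6ra, and for the combination against LPS they were Ifngr2 and Il6ra. Ifngr2 for the combination against anti-CD36 and Il13ra1 for the interaction were the others. The cause of these changes was not tested, except where noted. Receptor genes called with anti-CD36 were 2 with a pseudocount of 0.1, 3 with 5, 0 at a mean FPKM of at least 5 (Il6st, with a mean of 4.28 FPKM, was then not tested), 3 with mitochondrial genes left out, 0 in the fit on only the groups compared and 2 by limma-voom (0 to 3 leaving out a library). For the combination against LPS they were 2 with a pseudocount of 0.1, 4 on only the groups compared and 2 by limma-voom (0 to 3 leaving out a library), and for the interaction 0 to 1.

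All genes called with LPS (5614) were 3665 at a mean FPKM of at least 5, and 3598 to 7091 leaving out a library. With anti-CD36 (1405) they were 811 at that mean, 763 with the length trend removed and 0 on only the groups compared, and 0 to 3730 leaving out a library. For the combination against LPS (183) they were 88, 121 with mitochondrial genes left out and 2307 on only the groups compared, and 1 to 1431 leaving out a library. Against anti-CD36 (4844) they were 3098 and 3216 to 6381. For the interaction (1) they were 0 with a pseudocount of 0.1, 6 with 5, 2 with the length trend removed and 0 by limma-voom, and 1 to 615 leaving out a library.

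Replicate numbers are shared between groups, and deviations of same-numbered libraries correlated at -0.65 to 0.53 over the pairs of groups. Whether same-numbered libraries share more than a number cannot be told from 2 libraries a group. The replicate block gave 863 genes called with anti-CD36 and 46 for the combination against LPS, and 4, 1, 1, 5 and 0 receptor genes over the 5 comparisons, the gene lost being Ifnar2 in the combination against anti-CD36. In the chain ratios the block gave an adjusted p of 0.0741 at 0.58 for Ifnar1 to Ifnar2, -1.58 for Ifngr1 to Ifngr2 and -3.24 for Il6ra to Il6st, where its smallest exact p is 0.0556. Within the libraries with and without the antibodies, the LPS difference in log2 ratio was -1.92 and -1.24 for Ifngr1 to Ifngr2, 2.39 and 0.12 for Il4ra to Il13ra1, and -3.83 and -2.66 for Il6ra to Il6st.

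The differences that turned were uncalled. With mitochondrial genes left out they were Ifnar1 (-0.12), Ifngr2 (-0.19) and Il13ra1 (-0.028) for LPS, Ifngr2 (-0.042) for anti-CD36, Ifnar2 (-0.070) for the combination against LPS, and Ifnar1 (-0.039) and Il6st (-0.010) for it against anti-CD36. With quantile normalization they were Il6st for LPS (0.029), Ifnar2 for anti-CD36 (0.085) and Il10ra for the combination against LPS (0.038), and with size factors the same genes at 0.0035, 0.025 and 0.050. With the length trend removed they were Il6st for LPS (0.072), Ifnar2 for the combination against LPS (-0.039) and the Ifnar1 interaction (-0.0097), and with a pseudocount of 5 the Il6ra interaction (0.10). Leaving out a library, ranges crossed 0 for Ifngr2 with LPS (-0.079 to 0.11), for Ifnar2 (-0.20 to 0.071), Ifngr2 (-0.17 to 0.27) and Il13ra1 (-0.027 to 0.28) with anti-CD36, for Ifnar2 (-0.052 to 0.057) and Il10ra (-0.044 to 0.042) between the combination and LPS, and for the interactions of Ifnar1 (-0.033 to 0.17) and Ifnar2 (-0.069 to 0.20).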

Other observations

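The pathway genes were also read in cells that all had the antibodies. These share no library with the LPS and untreated groups, but the fit took its spread from all 8 libraries. Of all genes tested, 15.4% were called higher and 31.7% lower in the combination than with anti-CD36 alone. All 3 ligand genes were higher in the combination than with anti-CD36 alone. Lif was at 164 and 164 FPKM in the combination and 0.0768 and 0.0481 FPKM with anti-CD36, and Il27 at 302 and 309 FPKM, against 0.613 and 0.785 FPKM. Of 8 other receptor chains tested, 4 were higher and 2 lower, among them Il2rg (log2 difference 0.95, adjusted p = 0.00832) and Csf2rb (-1.17, adjusted p = 0.000366 by limma). Of 5 STATs tested, 2 were higher and 1 lower. Stat2 was at 12.7 and 12.8 FPKM in the combination and 7.29 and 6.13 FPKM with anti-CD36 (0.84, adjusted p = 0.00169), and Stat6 at 29.9 and 28.2 FPKM, against 53.1 and 44.4 FPKM (-0.72, adjusted p = 0.00234 by limma). Jak2 was higher (0.90, adjusted p = 0.00133), while Tyk2 had a log2 difference of -0.01 (adjusted p = 0.929 by limma).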
